A study of Mus musculus with 6 samples.

Results

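The genes of serotonin synthesis, storage, breakdown and sensing, with the prolactin receptor, were examined in mouse pancreatic islets labelled as lacking Tead1 in beta cells. The members were named by function: the tryptophan hydroxylases Tph1 and Tph2, the decarboxylase Ddc, the vesicle transporter Slc18a2, the receptors Htr1d and Htr2b, the monoamine oxidases Maoa and Maob, and Prlr. Every probe set whose platform gene symbol was exactly 1 of these names was taken. This gave 12 probe sets for 8 of the 9 genes, of 18193 genes with a probe set of their own. Prlr was not analysed here. The topic was taken up because Tph2 was higher in Tead1KO islets, so the Tead1KO and Flox values of these genes are given as a description and support no test.

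The Tead1KO samples were islets of male C57Bl6 mice at 12 weeks of age in which beta cells were to lack Tead1, a DNA-binding factor through which Hippo signalling acts on genes. The Flox samples were islets of male C57Bl6 flox mice of the same age. Each group had 3 samples with 1 Affymetrix array each, and the labels name no Cre driver and do not say whether islets of several mice were pooled. Values are log2 probe set signals, and islets are a mixture of cell types, in which fewer cells of a type and less RNA per cell cannot be told apart.

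Serotonin is made from tryptophan by a hydroxylase, which needs tetrahydrobiopterin as a cofactor, and then by the decarboxylase Ddc. It is loaded into vesicles by a vesicular monoamine transporter and broken down by monoamine oxidases on the outer membrane of mitochondria. In pregnant mice, placental lactogen and prolactin act on Prlr of beta cells, and beta cells then make serotonin, which acts back on them through receptors such as Htr2b. Tph1 is the hydroxylase of peripheral tissues and the pineal gland, and Tph2 that of serotonin neurons in the brain. Both are known to be induced in islets in mouse pregnancy. The values address whether the higher Tph2 signal came together with the other genes of this programme.

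The arrays had medians between 5.17 and 5.37. The mean of the hybridization controls, spiked into every sample, was 12.09, 10.87 and 13.23 in Tead1KO replicates 1 to 3, and 11.89, 10.96 and 10.60 in Flox replicates 1 to 3. Tead1KO replicate 3, with the highest controls, also had the narrowest interquartile range (2.65, against 2.99 to 3.32 on the other arrays). Control probe sets against bacterial RNA absent from the samples read between 2.87 and 4.70, which served as the background range. The brighter Tead1 probe set read 6.72, 7.49 and 5.95 in the Tead1KO arrays and 7.22, 6.99 and 7.40 in the Flox arrays (exact permutation p = 0.4, two-sided, where 0.1 is the smallest possible). Where these probes lie with respect to the deletion is unknown here, so they do not check the labels. Beta cell markers (Ins2, Iapp, Slc2a2, Ucn3, Nkx6-1 and Pdx1) were above background on every array. Their mean level was 12.09 to 12.54 in the Tead1KO arrays and 12.77 to 12.96 in the Flox arrays. Limma called 0 of 6, with 4 at an unadjusted p under 0.05: Slc2a2 (log2 difference -0.82), Ucn3 (-0.95), Nkx6-1 (-0.95) and Pdx1 (-0.66 at its brighter probe set). The hormone genes Ins2 (-0.01, SE 0.07) and Iapp (0.03, SE 0.10 at its brightest probe set) differed by less than their SE. Acinar markers, from the exocrine tissue around islets, varied widely within both groups, between 12.39 and 14.31 in Tead1KO and between 12.22 and 14.41 in Flox.

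Tph2 was the member that differed most, and its paralog Tph1 stayed within background. The Tph2 probe set (1435314_at) read 7.0, 7.86 and 6.50 in Tead1KO replicates 1 to 3, and 4.06, 4.22 and 3.87 in Flox replicates 1 to 3. All Tead1KO arrays lay above background and all Flox arrays lay inside it, so Tph2 was above background only in the Tead1KO islets. The mean was 7.12 ± 0.69 in Tead1KO and 4.05 ± 0.18 in Flox (SD, n = 3 each), a log2 difference of the signals of 3.07 (SE 0.32), of which the Flox side is background. Against the upper end of the background this is at least 5.35-fold higher in Tead1KO.

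Tph1 (probe set 1419524_at) read 4.17, 4.05 and 4.15 in the Tead1KO arrays and 3.74, 3.76 and 4.06 in the Flox arrays. The groups overlapped, and all 6 values were within background, so no fold is given for Tph1. Tead1KO arrays were therefore above background for only the neuronal hydroxylase of the pair, by 1 probe set for each gene.

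The stretches before the transcription starts of both hydroxylase genes are shown because the arrays separated these paralogs. They are the 250 bases before each start in RefSeq (GRCm38.p6), 5′ to 3′, and Tph1 has a pair of annotated starts. Capitals mark a TEAD motif (GGAATG, on either strand) or a STAT5 motif (TTCNNNGAA, which reads alike on both strands). The motifs do not overlap here.
Tph2 (chr10:115185023-115185272, minus strand): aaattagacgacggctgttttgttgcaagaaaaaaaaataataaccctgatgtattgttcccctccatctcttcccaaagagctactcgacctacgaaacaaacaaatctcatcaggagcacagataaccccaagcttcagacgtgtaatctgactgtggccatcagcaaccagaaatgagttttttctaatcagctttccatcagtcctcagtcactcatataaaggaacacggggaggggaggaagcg
Tph1, upstream start (chr7:46672538-46672787, minus strand): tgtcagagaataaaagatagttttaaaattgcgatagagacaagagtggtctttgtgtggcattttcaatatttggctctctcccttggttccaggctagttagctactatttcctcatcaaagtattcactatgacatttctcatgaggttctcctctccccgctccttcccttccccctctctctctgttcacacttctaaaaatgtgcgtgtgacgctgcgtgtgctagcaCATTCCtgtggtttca
Tph1, downstream start (chr7:46667378-46667627, minus strand): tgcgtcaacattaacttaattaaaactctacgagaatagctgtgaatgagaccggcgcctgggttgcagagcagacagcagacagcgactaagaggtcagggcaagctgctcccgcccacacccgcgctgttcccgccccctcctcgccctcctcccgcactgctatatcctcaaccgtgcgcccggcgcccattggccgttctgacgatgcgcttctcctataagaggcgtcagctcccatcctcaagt
The Tph2 window held neither motif. The window of the upstream Tph1 start held 1 TEAD motif, which began 16 bases before the start, and that of the downstream start held neither. Of 32851 mouse promoter windows of this length, 12.6% held the TEAD motif and 7.02% the STAT5 motif. Of the 13 windows of 8 members, 3 held a TEAD motif (Tph1, Htr1d and Htr2b) and 1 a STAT5 motif, a window of Prlr. These matches describe letters only, and a window without a match says nothing about a factor.

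Ddc, which turns the product of the hydroxylases into serotonin, was well above background in both groups. Its brighter probe set (1426215_at) read 12.42, 12.98 and 12.48 in the Tead1KO arrays and 12.70, 13.04 and 12.90 in the Flox arrays (log2 difference -0.25, SE 0.18). Its dimmer probe set read 8.19, 8.70 and 7.77 in Tead1KO and 8.34, 8.18 and 8.22 in Flox (log2 difference -0.03, SE 0.24). The groups overlapped for both probe sets. The transcript of the second step of synthesis was thus measured in islets of either genotype.

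Slc18a2, the vesicular transporter also called VMAT2 (probe set 1437079_at), was within background on every array. It read 3.32, 3.48 and 3.53 in Tead1KO and 3.34, 3.41 and 3.37 in Flox. This is 1 probe set, and a true level below what it can detect was not detectable here. The other vesicular monoamine transporter, Slc18a1, read 7.86, 8.34 and 7.24 in Tead1KO and 8.34, 8.50 and 8.45 in Flox at its only probe set above background. Its difference of -0.62 (SE 0.27) did not pass (limma adjusted p = 0.871).

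**Figure D1:**
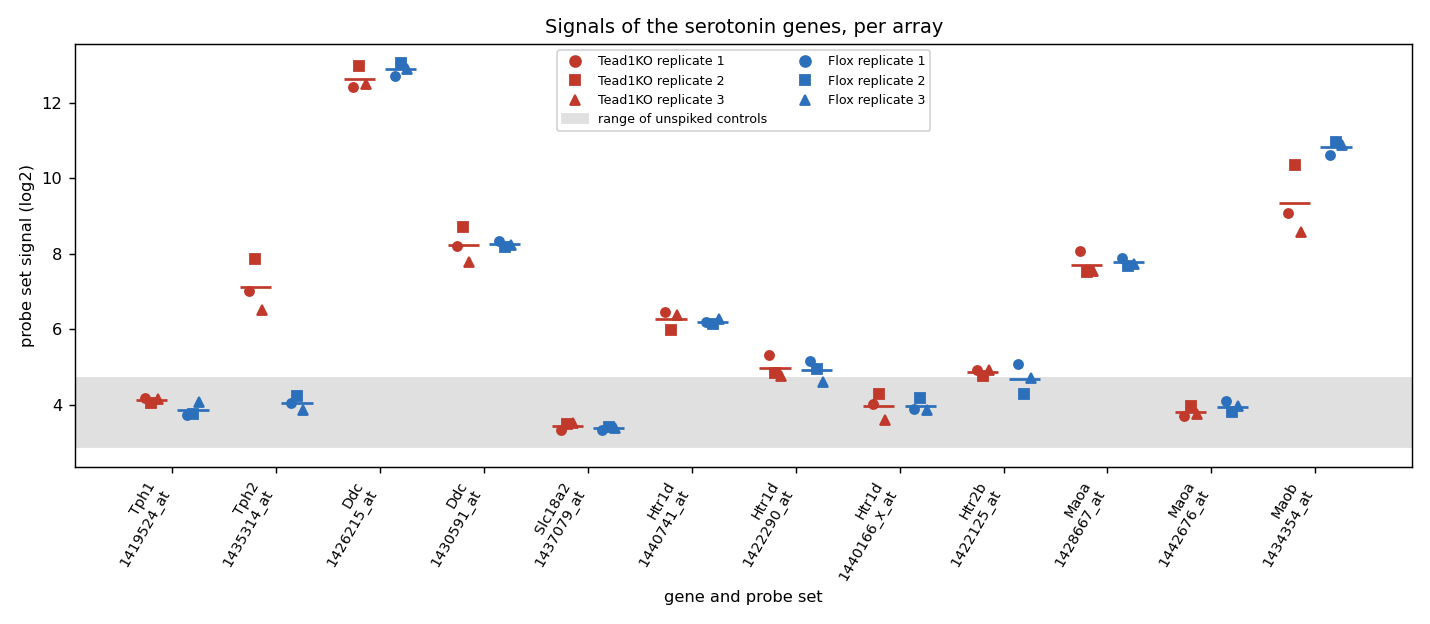
Log2 probe set signal (y axis) of each probe set of the serotonin genes (x axis), with 1 point per array; red marks Tead1KO and blue Flox, the symbol gives the replicate, short lines give each group's mean and grey shading spans the background, 2.87 to 4.70. The groups are separate for Tph2, with the Tead1KO arrays at 6.50 to 7.86 and the Flox arrays in the shading, and for Maob, with the Tead1KO arrays below the Flox arrays.

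Of the enzymes that break serotonin down, Maob was lower in every Tead1KO array than in every Flox array, and Maoa overlapped. Maob (probe set 1434354_at), a monoamine oxidase with a preference for phenylethylamine over serotonin, read 9.09, 10.34 and 8.56 in Tead1KO replicates 1 to 3. It read 10.61, 10.96 and 10.87 in Flox replicates 1 to 3. The mean was 9.33 ± 0.91 in Tead1KO and 10.81 ± 0.18 in Flox (SD, n = 3 each), a log2 difference of -1.48 (SE 0.40). Of the 45037 probe sets, 63 had a more negative difference, a rank that takes no account of the spread. Maob was not called (limma adjusted p = 0.496). The Tead1KO arrays spread far more than the Flox arrays, and Tead1KO replicate 2 lay close to the Flox values.

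The 3 Tead1KO values of Maob ran in the reverse order of the hybridization controls of those arrays (12.09, 10.87 and 13.23), and so did those of Tph2. The part of array quality in this spread was not tested. With the mean of the hybridization controls as a covariate, the Maob difference was -0.91 and the Tph2 difference 3.45. Without Tead1KO replicate 3 the Maob difference was -1.10, and without Tead1KO replicate 2 it was -1.99. The mean level of the beta cell markers also differed, with Slc2a2, Ucn3, Nkx6-1 and Pdx1 lower, and its part in the Maob difference was not tested. Ins2 and the brighter Iapp probe sets lay near the top of the signal range, and whether they could show a shared difference was not tested. The dimmest Iapp probe set, of a type that can match several transcripts, read 9.88, 9.85 and 9.89 in Tead1KO. It read 10.01, 9.74 and 9.83 in Flox (log2 difference 0.01, SE 0.15).

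Maoa, which prefers serotonin as a substrate, read 8.06, 7.52 and 7.53 in Tead1KO and 7.89, 7.68 and 7.73 in Flox at its brighter probe set (log2 difference -0.06, SE 0.20). The order of the arrays differed from that of Maob, with Tead1KO replicate 1 the highest of the 6. Its dimmer probe set was within background on every array.

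**Figure D2:**
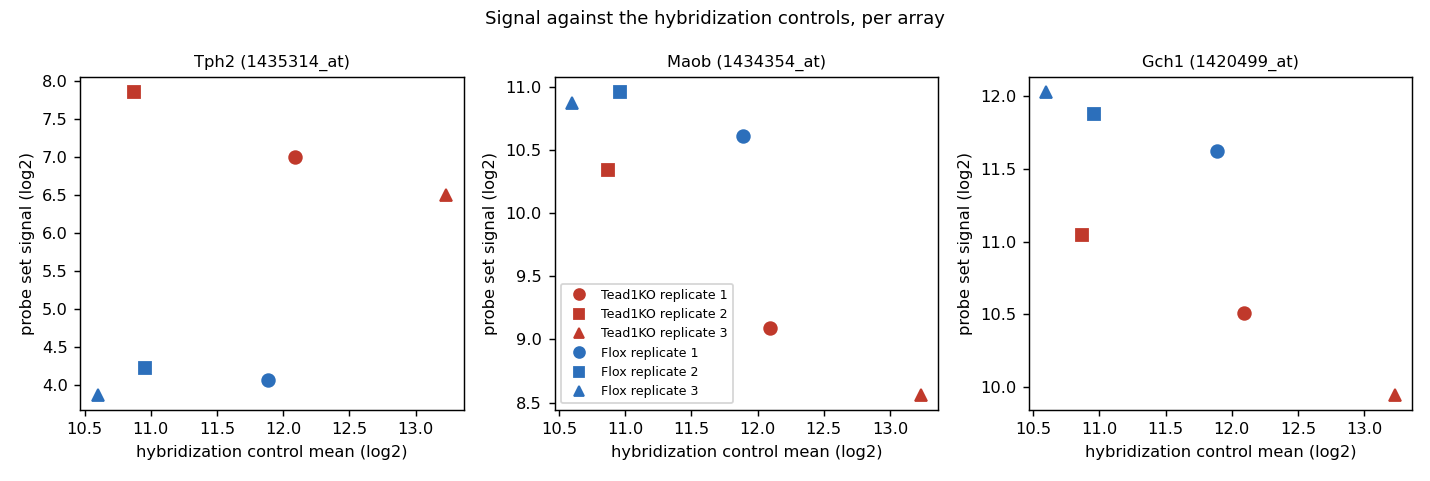
Log2 signal of Tph2, Maob and the brighter Gch1 probe set (y axis, a panel each, with its own scale) against the mean log2 signal of the hybridization controls (x axis), with 1 point per array; red marks Tead1KO, blue Flox and the symbol the replicate. Tead1KO replicate 3, at 13.23 on the x axis, has the lowest Maob and Gch1 signals of the 6 arrays and the lowest Tph2 signal of the Tead1KO arrays.

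The serotonin receptors among the members read low and overlapped between the groups. Htr2b (probe set 1422125_at), the receptor coupled to Gq through which serotonin promotes beta cell growth in pregnant mice, read 4.93, 4.75 and 4.92 in Tead1KO and 5.08, 4.29 and 4.71 in Flox (log2 difference 0.18, SE 0.21). These values lie at the upper edge of the background. Htr1d, a receptor coupled to Gi, had 3 probe sets. The brightest read 6.46, 5.98 and 6.37 in Tead1KO and 6.18, 6.15 and 6.27 in Flox (log2 difference 0.07, SE 0.18). The next lay near the background (log2 difference 0.06), and the dimmest, of a type that can match several transcripts, lay within it on every array.

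Taken over the 12 probe sets, 6 had a difference above 0, 4 were within background on all 6 arrays, and the groups did not overlap for 2 (Tph2 and Maob), against 10.5% of all probe sets tested (5.36% with Tead1KO above Flox). In the limma fit over 45037 probe sets, 81 were called at an adjusted p under 0.05, which is 0.18% (0.131% higher and 0.0488% lower in Tead1KO). Tph2 was the 1 member probe set called. Nothing is read from these member counts, since the same contrast led to the choice of the genes. The call of Tph2 was absent without Tead1KO replicate 1 and without Flox replicate 1, 2 or 3, and Maob was called in addition without Tead1KO replicate 2.

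The genes around this pathway were described by 7 lists named by function, and limma called 0 of their probe sets in either direction. The counts at an unadjusted p under 0.05 are given with each list. Over all 45037 probe sets the median difference was 0.03, and 1067 were higher and 1266 lower at an unadjusted p under 0.05.

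Of the aromatic amino acid hydroxylases and the genes that make and recycle their cofactor, limma called none. Of 12 probe sets of 9 measured genes, 2 had a difference above 0, against 25170 of all 45037, and the median was -0.34, and 4 were lower and 0 higher at an unadjusted p under 0.05. Gch1, the first and rate-limiting enzyme of tetrahydrobiopterin synthesis, read 10.51, 11.05 and 9.95 in the Tead1KO arrays and 11.62, 11.88 and 12.03 in the Flox arrays. All Tead1KO values lay below all Flox values, with a log2 difference of -1.34 (SE 0.27) that did not pass (limma adjusted p = 0.194). The dimmer Gch1 probe set differed by -1.003 (SE 0.27, limma adjusted p = 0.467), again without overlap.

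The brighter Gch1 probe set passed with quantile normalization (limma adjusted p = 0.0329), when the fit also held the hybridization controls (0.00634), and without Tead1KO replicate 2 (0.0259). Over all alternatives its adjusted p ran from 0.00634 to 0.929. Th, the tyrosine hydroxylase of catecholamine synthesis, which uses the same cofactor, read 7.20, 7.23 and 6.55 in Tead1KO and 7.85, 8.34 and 8.51 in Flox (log2 difference -1.24, SE 0.26, limma adjusted p = 0.222). Qdpr, which recycles the cofactor, differed by -0.67 at 1 probe set and by -0.11 at the brighter one. Pts, the second enzyme of cofactor synthesis, differed by -0.47. For neither was a probe set called. The part of the beta cell markers, of which 0 of 6 were called, in these values was not tested.

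Transport and further metabolism of serotonin had 18 probe sets of 6 measured genes, with a median of 0.13, and 2 were higher and 0 lower at an unadjusted p under 0.05. Both belonged to Tgm2, a transglutaminase that can attach serotonin to proteins, and both are of a type that can match several transcripts. Tgm2 probe sets above background that are not of this type differed by 0.13 and 0.24, with overlapping groups. The brightest Tgm2 probe set read 11.51, 11.28 and 11.01 in Tead1KO and 10.29, 10.55 and 10.70 in Flox (log2 difference 0.75, SE 0.18, limma adjusted p = 0.346). When the fit also held the hybridization controls, a pair of Tgm2 probe sets passed (limma adjusted p = 0.0355 and 0.0375), again of the type that can match several transcripts. Slc6a4, the transporter that takes serotonin back up, read 4.92, 4.61 and 4.96 in Tead1KO and 4.56, 4.73 and 4.62 in Flox, at the edge of the background. Slc29a4, a monoamine transporter of the plasma membrane, differed by -0.19 and -0.24, with overlapping groups.

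The further serotonin receptors had 18 probe sets of 11 measured genes, of which 4 were above background on at least 3 arrays, and 0 had an unadjusted p under 0.05. Htr3a, a subunit of the serotonin-gated ion channel, read 7.26, 7.38 and 8.05 in Tead1KO and 7.38, 6.97 and 6.98 in Flox (log2 difference 0.45, SE 0.24, limma adjusted p = 0.871). Its highest value was that of Tead1KO replicate 3. Htr4 and Htr5b were within background on every array, and Htr2c on all but 1.

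Among the genes of tryptophan uptake and of the kynurenine route, which competes for tryptophan, 21 probe sets of 11 genes had a median of 0.00, with 1 higher and 3 lower at an unadjusted p under 0.05. Ido1, which opens the kynurenine route, read 5.61, 4.94 and 4.58 in Tead1KO and 4.38, 4.47 and 4.08 in Flox, with all Flox arrays within background (limma adjusted p = 0.819). Slc7a8, an amino acid transporter, differed by -0.63 (SE 0.22, limma adjusted p = 0.800), without overlap. The probe sets of Tdo2 did not move alike, at -0.75 near background and 0.26 at the brightest. Slc6a19, a neutral amino acid transporter, differed by -0.35 at its brighter probe set.

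The transcription factors of serotonin-making cells had 9 probe sets of 6 measured genes and a median of -0.10, with 0 at an unadjusted p under 0.05. Lmx1b, needed for serotonin neurons, differed by -0.17 and 0.18. Gata2 differed by 0.24 and 0.12. Insm1, a factor of endocrine cells and neurons, differed by -0.43 and -0.64. Nkx2-2, which serotonin neurons and beta cells share, differed by -0.23. Each had overlapping groups.

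Signalling from the prolactin and growth hormone receptors had 46 probe sets of 18 measured genes. The median difference was -0.12, and 0 were higher and 6 lower at an unadjusted p under 0.05. Cish, a feedback inhibitor that lactogens induce through Stat5, read 10.97, 10.35 and 10.66 in Tead1KO and 10.77, 10.13 and 9.95 in Flox. The groups overlapped, and the log2 difference of 0.37 (SE 0.25) did not pass (limma adjusted p = 0.871).

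Socs2, another such inhibitor, read 7.66, 8.47 and 5.63 in Tead1KO and 8.32, 8.68 and 8.63 in Flox at its brightest probe set (log2 difference -1.29, SE 0.62, limma adjusted p = 0.871). This difference rested largely on Tead1KO replicate 3, the array with the highest hybridization controls, and its other probe sets differed by -0.76 to 0.29. Of the 6 Socs2 probe sets, 3 had a difference above 0 and 3 below, and 0 were called. The next brightest was among those below (-0.76). Among those above 0, the probe set at 0.13 was within background on every array. That at 0.25 was above background on only 1 Tead1KO array and on no Flox array.

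Ghr, the growth hormone receptor, which signals through the same kinase as Prlr, read 10.02, 10.11 and 9.96 in Tead1KO and 10.70, 10.84 and 10.74 in Flox. All Tead1KO values lay below all Flox values, with a log2 difference of -0.73 (SE 0.14, limma adjusted p = 0.161). A brighter Ghr probe set differed by -0.75 with overlapping groups, and passed only without Tead1KO replicate 2 (limma adjusted p = 0.0369). The kinase Jak2 differed by -0.21 with overlap and, at its dimmer probe set, by -0.30 without overlap. The transcription factor Stat5b differed by 0.28 at its brighter probe set, with all Tead1KO values above all Flox values (limma adjusted p = 0.871). Its dimmer probe set differed by 0.09, with overlap. Stat5a differed by 0.11 at its brighter probe set, with overlap. The phosphatase Ptpn11 differed by -0.49 and the adaptor Shc1 by -0.47 and -0.51, without overlap; the other Ptpn11 probe sets differed by -0.25 and -0.11, with overlap. The phosphatase Ptpn6 differed by -0.65 at its dimmer probe set and by -0.05 at its brighter one. None of these was called in that fit.

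The islet genes tied to pregnancy had 48 probe sets of 22 measured genes and a median of -0.02, with 4 higher and 5 lower at an unadjusted p under 0.05. Slc2a2, the glucose transporter of beta cells, read 12.60, 13.08 and 12.31 in Tead1KO and 13.37, 13.58 and 13.48 in Flox (log2 difference -0.82, SE 0.19, limma adjusted p = 0.331). It passed without Tead1KO replicate 2 (limma adjusted p = 0.0286). Ccnd1, a G1 cyclin, read 11.78, 11.67 and 11.52 in Tead1KO and 12.27, 12.21 and 12.10 in Flox at its brightest probe set (log2 difference -0.54, SE 0.13, limma adjusted p = 0.348). Its other probe sets differed by -0.82 and -0.13, with overlapping groups. Met, the receptor of hepatocyte growth factor, differed by -1.01 at its brighter probe set and by 0.04 at its dimmer one. Matn2, a matrix protein, differed by -0.59 at its brighter probe set. Neither gene passed. The 4 probe sets higher at an unadjusted p under 0.05 were named after their values were seen. They belonged to Birc5 (log2 difference 0.82) and Top2a (0.68), which act in dividing cells, the repressor Bcl6 (0.46) and the cell cycle inhibitor Cdkn2c (0.46), each with a limma adjusted p of 0.871. The other Bcl6 probe set differed by 0.10. The other Top2a probe sets (0.12 and -0.10) were within background on every array.

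**Figure D3:**
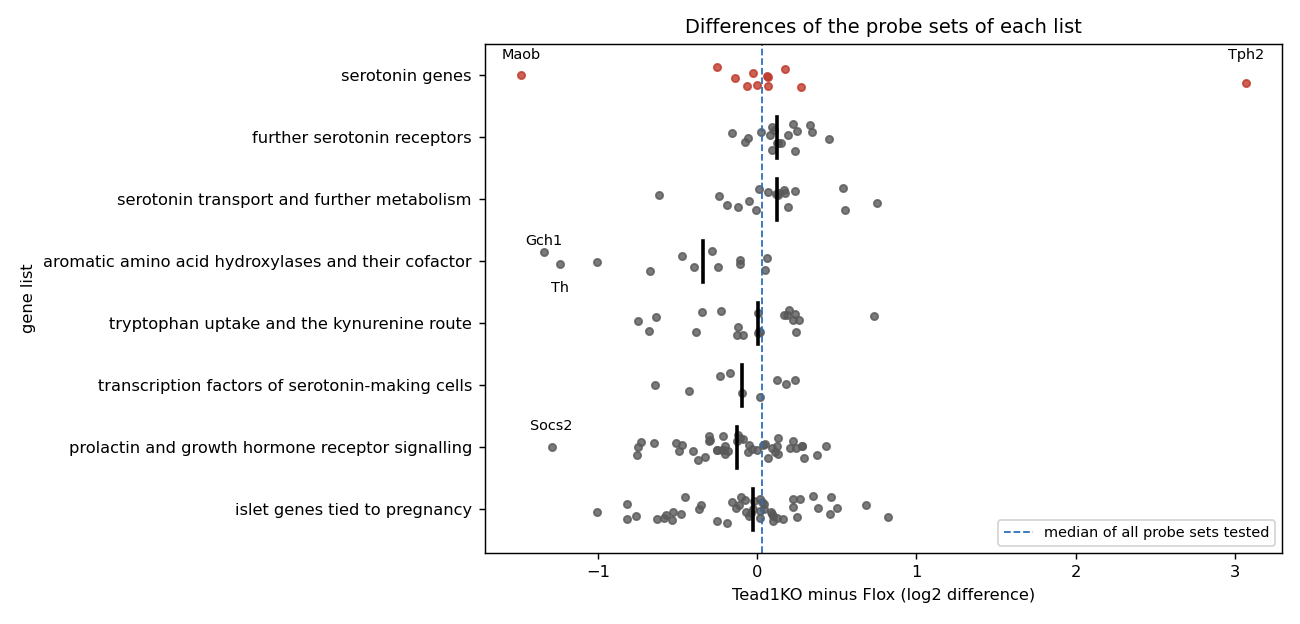
Log2 difference, Tead1KO minus Flox (x axis), of every probe set of the serotonin genes and of each list (y axis); points are probe sets, spread vertically for display, black bars are list medians and the dashed line is the median of all probe sets tested, 0.03. Tph2 stands alone at 3.07, Maob lies at -1.48, Gch1 at -1.34 and Th at -1.24, and the list of hydroxylases and cofactor genes has a median of -0.34.

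Mast cells, enterochromaffin cells, autonomic neurons and platelets can also hold serotonin or its genes, and their markers were read beside Tph2. Mast cell markers averaged 4.61 to 4.88 in the Tead1KO arrays and 4.67 to 4.83 in the Flox arrays, and 0 of 8 were called. Hdc, the histamine-forming enzyme, was lower in Tead1KO at its brighter probe set (log2 difference -0.46, limma unadjusted p under 0.05). Its other probe set differed by 0.10. Hdc was the only 1 of the 8 mast cell markers with a difference below 0, and the median of the list was 0.14. Fcer1a and Mcpt4, a receptor chain and a protease of mast cells, were within background on every array. Enterochromaffin markers averaged 4.72 to 5.20 in Tead1KO and 4.74 to 4.87 in Flox, with 0 of 4 called and 0 at an unadjusted p under 0.05. Neuronal markers averaged 5.64 to 5.89 in Tead1KO and 5.87 to 6.06 in Flox, with 0 of 6 called (1, Th, at an unadjusted p under 0.05). Platelet markers averaged 5.04 to 5.66 in Tead1KO and 5.04 to 5.16 in Flox, with 0 of 4 called. Ppbp, a platelet chemokine, had an unadjusted p under 0.05 (log2 difference 0.60) and was within background on every array. Alpha cell markers averaged 12.51 to 12.75 in Tead1KO and 12.44 to 12.63 in Flox. The ranges of the groups overlapped for each of these lists. Above background on all arrays were 3 of 8 mast cell markers and 1 of 4 enterochromaffin markers. The Tph2 groups were 2.28 apart at their nearest arrays. That gap is of 1 probe set and the list levels are means over genes, so they are unlike measures. The cell type that held the Tph2 transcript was not tested.

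The genes whose pattern over the 6 arrays was most like that of Tph2 were Aldh1a3, Mylk, Tln2, Mmp2 and Plet1, with Pearson correlations from 0.996 to 0.998. They were chosen from the 23946 probe sets above background on at least 3 arrays that had exactly 1 gene symbol and belonged to no member, of which 1.34% had a correlation of 0.9 or more. With a pair of groups of 3 arrays, such a correlation mostly reflects the gap between the groups and is given as a description. Aldh1a3, an enzyme of retinoic acid synthesis, read 8.73, 9.53 and 7.74 in Tead1KO at this probe set and 4.49, 4.58 and 4.25, within background, in Flox. Plet1, a surface protein, read 9.82, 10.56 and 9.24 in Tead1KO and 5.87, 5.78 and 5.67 in Flox. Mylk, the myosin light chain kinase, differed by 2.20, Mmp2, a matrix metalloproteinase, by 1.13, and Tln2, a talin, by 1.06. Aldh1a3, Mylk and Plet1 were called, and Mmp2 (limma adjusted p = 0.0741) and Tln2 (0.141) were not.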

How the data were processed

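RNA of mouse islets was measured on 6 arrays, 3 of Tead1KO and 3 of Flox. The authors deposited log2 probe set signals and, per the submitters' processing notes, used Affymetrix Expression Console. The sources used here give no version, background correction or normalization, and the log2 scale was read from the values (2.75 to 15.7). No scanner files were used here. Of 45101 probe sets, 64 controls were left out. Of the other 45037, 34945 had exactly 1 symbol in the platform annotation, 932 had several and 9160 were unnamed here. No filter was applied.

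Groups were compared per probe set in R (version 4.3.3) using limma (version 3.58.1; lmFit, eBayes with trend, no covariate), with Benjamini-Hochberg adjustment over all 45037 and a threshold of 0.05. Differences are Tead1KO minus Flox, SE is moderated, and SD is over arrays. No label says that the samples came from separate mice, so p-values reflect the scatter of these arrays, which can be technical. The number of arrays limits the precision. Background is the range of 27 probe sets of unspiked bacterial transcripts. For a group within it, the fold is the other group's mean against 4.70. Marker levels are means over each gene's brightest probe set.

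The members, lists, tests and alternatives were chosen with earlier results of these data known. Named genes were all members, Tead1, per list any called gene and up to 4 with the lowest unadjusted p, a fixed set, and the 5 genes most like Tph2. Of the fixed set, some genes, Fev and Ins1 among them, were not analysed here. The fit was also run on simulated data with known differences, drawn with the same spread in both groups. That run does not cover probe sets of unequal spread, such as those of Tph2 and Maob. Promoter sequences are from RefSeq. Replicates with the same number did not deviate together in every pair, so the numbers were not taken as pairs.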

Additional observations from a re-analysis of the deposited data

How the results depend on the processing

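The Maob difference ran from -1.99 to -0.91 over 14 alternatives. That of Tph2 ran from 2.70 to 3.45, with a Flox side within background, so these values are no measure of stability. Tph2 was called in 10 of these alternatives. It was not called without Tead1KO replicate 1 or without Flox replicate 1, 2 or 3. Between 0 and 2 member probe sets were called when an array was left out, and 1 under each alternative with all arrays at an adjusted p under 0.05. Members were not counted at the other thresholds. For the other 10 member probe sets, 0 were called under any alternative, and 7 of them, among Ddc, Htr1d, Htr2b, Slc18a2 and Maoa, had the other sign under at least 1 alternative.

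Of all probe sets, 81 were called (59 higher, 22 lower in Tead1KO). The count was 143 with quantile normalization (95 higher, 48 lower), 42 with median centring (34 higher, 8 lower), 268 with the hybridization controls as a covariate (182 higher, 86 lower) and 105 without dim probe sets (38 lower). It was 20 at an adjusted p under 0.01 (17 higher, 3 lower) and 143 under 0.1 (89 higher, 54 lower). When an array was left out, it ran from 4 without Tead1KO replicate 1 to 239 without Tead1KO replicate 2 (4 to 137 higher, 0 to 152 lower). The cause was not tested.

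In the pathway lists, 0 probe sets were called. With the hybridization controls as a covariate 2 were higher (Tgm2) and 1 lower (Gch1). With quantile normalization 1 was lower (Gch1). Without single arrays 0 to 3 were lower, the 3 being Gch1, Ghr and Slc2a2 without Tead1KO replicate 2. With the replicate block, 96 probe sets were called (34 lower). Deviations of same-numbered arrays correlated at 0.06, 0.35 and -0.20, and Tead1KO replicate 3 correlated best with Flox replicate 1 (0.35). The numbers were therefore not taken as pairs. These correlations rest on 3 arrays a group and cannot exclude that same-numbered samples belonged together. Neither Tead1 probe set passed under any alternative, and the dimmer one differed by 0.10 without Flox replicate 1. With 3 arrays a group, differences near the background could hardly be measured.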
